A study of Mus musculus with 6 samples.

Results

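Of 37 H/ACA box small nucleolar RNA (snoRNA) genes tested in mouse embryonic stem cells, 30 were called lower in cells with a trapped Srrm2 allele than in WT cells, and none was called higher. The class was taken as every gene of type snoRNA in GENCODE release M21 (build GRCm38) whose symbol begins with Snora. The annotation held 42 such genes, of which 41 were among the 42450 genes listed in the deposited count table, and no pair of those with any count had identical counts in all 6 libraries. A filter on low counts left 37 of the 41, out of 18905 genes tested. Of the other 4, Snora52, Snora35 and one of the 2 identifiers named Snora43 were listed at 0 in every library. Snora36b held 12, 7 and 5 estimated counts in the WT libraries and 6, 1 and 1 in the Srrm2+/- libraries, too few to be tested.

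The WT group comprised 3 libraries of the male embryonic stem cell line E14tg2a.4. The Srrm2+/- group comprised 3 libraries of CG0630, a gene-trap line derived from E14tg2a.4 in which 1 Srrm2 allele is truncated, with no other allele and no agent named. Both lines were grown on gelatin with the cytokine LIF and then in serum-free medium with LIF, and total RNA was sequenced as paired reads of 75 bases. Each genotype is 1 line, so genotype and the history of the line cannot be told apart. The authors gave higher passage numbers for the WT than for the Srrm2+/- cultures, so passage is mixed with genotype too. P-values measure the spread between cultures of those lines only. Library totals lay between 54151532 and 69933465 estimated counts. Srrm2 checked the labels, with 91.2, 98.3 and 97.7 normalised CPM (read counts scaled for library size) in WT and 62.3, 56.2 and 59.6 CPM in Srrm2+/- libraries, so the groups did not overlap (log2 fold change -0.69, SE 0.05, adjusted p = 2.38e-05 in edgeR). Embryonic stem cell markers summed to 4854 to 4954 CPM in WT and 4113 to 4234 CPM in Srrm2+/- libraries, and 7 of the 10 were called lower and 2 higher. Summed markers of primitive endoderm were at 2.31 to 2.67 and 2.57 to 3.55 CPM, of fibroblasts at 3.06 to 3.25 and 6.13 to 9.31 CPM, and of trophectoderm at 67.3 to 74.2 and 271 to 295 CPM in WT and Srrm2+/- libraries, and their part in the snoRNA values was not tested. The trophectoderm sum rose through the keratin genes Krt8 (8.73 to 126 CPM) and Krt18 (9.21 to 127 CPM), while Tfap2c was called lower (50.6 to 30.8 CPM), Gata3 and Elf5 were not called and Cdx2 was not tested.

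H/ACA box snoRNAs are short nuclear RNAs that fold into hairpins joined by a hinge and end in a tail. The hinge carries box H, with the letters ANANNA, and the tail carries the letters ACA close to the 3′ end. Each guide RNA pairs with ribosomal RNA and directs the enzyme dyskerin, together with the small proteins GAR1, NHP2 and NOP10, to convert a chosen uridine to pseudouridine. In mammals most of these RNAs are not transcribed on their own but are trimmed out of spliced introns of host genes, many of which encode ribosomal proteins, translation factors or non-coding RNAs with little other known product. The Snora73 family (U17) is an exception in function, since it takes part in cleavage of the ribosomal RNA precursor rather than in its modification.

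Sequences of 6 members are shown because the results turn on them, taken from the GENCODE M21 transcripts. Capitals mark an ANANNA hinge in the central stretch of the RNA, where there is one (the central stretch being the middle part when the RNA is cut in 3 equal lengths), and the ACA that is followed by 3 final bases. Snora65 (chr2:32963291-32963420, plus strand) and Snora61 (chr4:132310240-132310369, plus strand) lie in Rpl12 and Snhg12 and are contained whole in a transcript of that host gene. Snora69 (chrX:37082912-37083042, minus strand) and Snora23 (chr7:110046364-110046547, plus strand) lie in introns of Rpl39 and Ipo7, and every stretch of 31 bases in them is found in no transcript of another gene. Snora73a (chr4:132352775-132352979, minus strand) and Snora73b (chr4:132352322-132352526, minus strand) are the most abundant members, and both lie in introns of Rcc1.
Snora65: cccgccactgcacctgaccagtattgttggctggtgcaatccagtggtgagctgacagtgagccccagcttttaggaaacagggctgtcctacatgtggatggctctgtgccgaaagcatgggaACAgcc
Snora61: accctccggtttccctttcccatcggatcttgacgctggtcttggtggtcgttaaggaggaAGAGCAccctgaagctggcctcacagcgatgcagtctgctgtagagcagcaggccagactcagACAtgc
Snora69: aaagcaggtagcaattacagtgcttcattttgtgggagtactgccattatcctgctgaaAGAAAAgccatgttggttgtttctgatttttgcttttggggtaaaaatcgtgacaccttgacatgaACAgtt
Snora23: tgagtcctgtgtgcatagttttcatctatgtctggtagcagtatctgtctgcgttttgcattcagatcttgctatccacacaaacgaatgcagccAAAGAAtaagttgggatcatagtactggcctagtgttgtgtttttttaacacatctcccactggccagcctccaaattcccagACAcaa
Snora73a: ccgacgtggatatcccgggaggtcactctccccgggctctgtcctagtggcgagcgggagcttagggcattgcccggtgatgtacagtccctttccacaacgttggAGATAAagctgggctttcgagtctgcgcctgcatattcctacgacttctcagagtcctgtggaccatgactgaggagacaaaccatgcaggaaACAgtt
Snora73b: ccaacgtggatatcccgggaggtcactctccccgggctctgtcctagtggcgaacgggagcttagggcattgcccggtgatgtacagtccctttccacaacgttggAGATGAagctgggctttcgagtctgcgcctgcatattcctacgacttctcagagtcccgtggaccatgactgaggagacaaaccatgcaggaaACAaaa
Snora73a and Snora73b were 205 bases each and differed at 7 positions, an identity of 96.6%. In the 42 annotated members, 35 (83.3%) had ACA 3 bases from the end and 39 (92.9%) had ANANNA in that central stretch, searched on the transcript strand. The same letters were found in 0 and 52 (53.1%) of 98 transcripts of C/D box snoRNA genes (symbol beginning with Snord), and in 20 (1.0%) and 1172 (58.7%) of 1995 other annotated transcripts of the same lengths. Among 1367 snoRNA genes with other symbols they were found in 241 (17.6%) and 1110 (81.2%). H/ACA genes under other symbols may therefore exist, and they were not counted as members. The tail thus set the class apart more sharply than the hinge letters, which are common by themselves.

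The 37 tested members moved almost wholly in one direction. In edgeR, 30 members were called lower at an adjusted p under 0.05, beside 11.7% of all genes tested, and 0 were called higher, beside 13.6% of all genes (25.3% in either direction). DESeq2 called 28 lower and limma voom 31, neither called any higher, and 0 members were higher at an unadjusted p under 0.05. The median log2 fold change of the members was -1.16, against 0.00 for all genes (-0.00254). Setting the members at 0 counts to their bound could not change it, since they remained the lowest members. Negative values were fitted for 36 members, where 50.3% of all genes had them, and 30 members had every WT library above every Srrm2+/- library, where 20.0% of all genes did. A fall to 50% or less (log2 fold change of -1 or below) was called for 24 members, beside 1.8% of all genes. In bulk RNA, fewer cells that hold an RNA and less of that RNA per cell cannot be told apart.

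**Figure D1:**
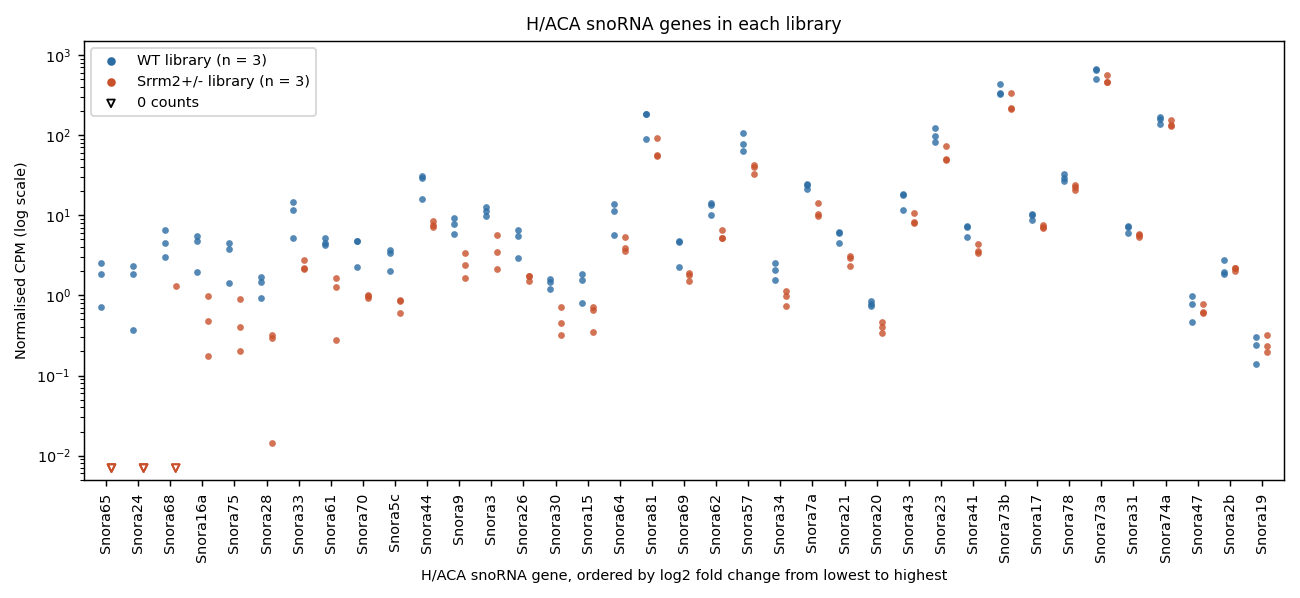
Normalised CPM (log axis) of the 37 tested H/ACA snoRNA genes in each of the 3 WT libraries (blue) and 3 Srrm2+/- libraries (red), with genes ordered by log2 fold change and open triangles for libraries at 0 counts. In 30 genes all WT points lie above all Srrm2+/- points, and the shift narrows from left to right.

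Some members could pass the filter through WT alone. In 33 of the 37, every Srrm2+/- library was at or above the CPM limit of the filter (0.167). Of these 33, 26 were called lower, beside 11.7% of all genes tested, with a median log2 fold change of -1.12. The other 4, Snora28, Snora65, Snora68 and Snora24, had a Srrm2+/- library under that limit. Snora65 and Snora24 had no Srrm2+/- library at or above it, so they passed through WT alone and had to differ. Snora28 had 2 such libraries at or above it and Snora68 had 1. Among the WT libraries, replicate 3 was the lowest for 30 of the 37 members, and the median member stood at 6.22, 6.59 and 4.499 CPM in WT replicates 1, 2 and 3 against 2.12, 2.19 and 2.76 CPM in the Srrm2+/- replicates. Without WT replicate 3 the call of 29 of the 30 members remained, and 29 were called lower when Srrm2+/- replicate 3 was left out as well.

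Members in genes of ribosomal proteins included the deepest falls. Snora65, in the gene of the large-subunit protein RPL12, held 139, 106 and 38 estimated counts in WT and 0, 0 and 0 in Srrm2+/- libraries. Its estimated count was therefore at least 37.3-fold lower, taking 3 counts per library as the floor (adjusted p = 0.00072 in edgeR). Every stretch of 31 bases in Snora65 also occurs in Rpl12, so this bound is on the estimated count and not on the RNA. Rpl12 itself was at 177 ± 10.6 CPM (SD, n = 3) in WT and 175 ± 6.04 CPM in Srrm2+/- cells and was not called, so the host stayed level while the snoRNA count went to 0. Snora33, in the gene of the small-subunit protein RPS12, stood at 14.6, 11.5 and 5.26 CPM in WT and 2.12, 2.19 and 2.76 CPM in Srrm2+/- libraries (log2 fold change -2.15, SE 0.33, adjusted p = 0.00152 in edgeR). Its groups were apart although WT replicate 3 was less than 50% of the other WT libraries. The count given to Rps12 was small, 3.60 ± 0.55 CPM in WT and 2.60 ± 0.30 CPM in Srrm2+/- cells, so that Snora33 held 293% and 89.8% of its host's count. Snora70, in the gene of the large-subunit protein RPL10, fell from 4.81, 4.71 and 2.26 CPM to 0.97, 1.02 and 0.92 CPM (log2 fold change -2.02, SE 0.28, adjusted p = 0.000921 in edgeR), with Rpl10 at 159 CPM in both groups.

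Snhg12 and Snhg15 are non-coding genes that serve as hosts of snoRNAs, and Snhg12 carried 3 tested members. Snora44 stood at 29.0, 31.2 and 15.9 CPM in WT and 7.09, 7.60 and 8.57 CPM in Srrm2+/- libraries (log2 fold change -1.71, SE 0.22, adjusted p = 0.000632 in edgeR). Snora61 stood at 4.27, 5.26 and 4.499 CPM against 1.26, 0.28 and 1.67 CPM (log2 fold change -2.14, SE 0.46, adjusted p = 0.00879 in edgeR). Snora16a stood at 5.50, 4.71 and 1.94 CPM against 0.17, 0.48 and 0.97 CPM (log2 fold change -2.92, SE 0.54, adjusted p = 0.00448 in edgeR). In all 3 the groups were apart, and the 3 falls were deeper than that of Snhg12, which went from 65.6 ± 5.01 to 54.6 ± 2.09 CPM (log2 fold change -0.27, SE 0.06, adjusted p = 0.0111 in edgeR). The count of Snora44 was 38.9% of that of Snhg12 in WT and 14.2% in Srrm2+/- cells. Every stretch of 31 bases in Snora44, Snora61 and Snora16a also occurs in Snhg12. Their counts thus divide reads with Snhg12 and cannot show a fall apart from the host. Snora9, in Snhg15, stood at 7.78, 9.29 and 5.83 CPM in WT and 1.66, 2.39 and 3.35 CPM in Srrm2+/- libraries (log2 fold change -1.63, SE 0.25, adjusted p = 0.00173 in edgeR), while Snhg15 went from 58.0 ± 1.57 to 52.8 ± 1.59 CPM. Snora9 likewise shares every stretch of 31 bases with Snhg15. Snora24, annotated in Snhg8, held 103, 133 and 20 counts in WT and 0, 0 and 0 in Srrm2+/- libraries. The estimated count was at least 33.4-fold lower (adjusted p = 0.00263 in edgeR). This too is a bound on the count only, since every stretch of 31 bases in Snora24 also occurs in Snhg8. WT replicate 3 again held the fewest counts, and the identifier of Snhg8 was not matched in the table, so that no host value stands beside it.

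Further deep falls were in genes of other roles. Snora75, in the gene of the abundant nucleolar protein nucleolin (Ncl), stood at 4.49, 3.75 and 1.44 CPM in WT and 0.40, 0.20 and 0.89 CPM in Srrm2+/- libraries (log2 fold change -2.71, SE 0.53, adjusted p = 0.00606 in edgeR). Snora28, in the gene of the translation initiation factor EIF5, held 95, 84 and 49 counts in WT and 1, 20 and 20 in Srrm2+/- libraries (log2 fold change -2.70, SE 0.60, adjusted p = 0.0106 in edgeR). Snora5c, in Tbrg4, stood at 3.35, 3.70 and 2.00 CPM against 0.61, 0.88 and 0.84 CPM (log2 fold change -1.96, SE 0.26, adjusted p = 0.000781 in edgeR). No library of one group overlapped the other in these 3 genes, and none of the 3 hosts was called (log2 fold changes -0.07 for Ncl, 0.17 for Eif5 and 0.00 for Tbrg4). Eif5 was called higher when WT replicate 1 was left out (log2 fold change 0.28, adjusted p = 0.00976 in edgeR). Snora68 held 165, 381 and 238 counts in WT and 0, 0 and 81 in Srrm2+/- libraries. Only 1 of its 3 Srrm2+/- libraries held any count, and the log2 fold change of -3.47 (SE 1.03, adjusted p = 0.0376 in edgeR) was not called by DESeq2 (adjusted p = 0.389). That call also failed without any 1 of WT replicates 1, 2 and 3 or Srrm2+/- replicates 1 and 2 (adjusted p from 0.0514 to 0.105).

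The count of a snoRNA rests on reads that can also fit other transcripts. The authors' tool divides a read that matches several transcripts among them by estimation, so each member was described by the share of its 31-base words (every run of 31 bases) found in annotated transcripts of other genes. All 12 members with the lowest log2 fold changes, given above, had 100% of their words elsewhere, and in 11 of them all words lay in a transcript of the host whose exon covers the snoRNA (91.5% of words in Snora5c). Of the 16 tested members with at least 95% of their words in their own host, 16 were called lower, beside 11.7% of all genes. Their median log2 fold change was -2.08. Another 5 tested members had at least 95% of their words elsewhere but not in their host, and 1 of them was called lower, with a median of -0.30. The 1 called was Snora5c, most of whose words do lie in its host, and the others were Snora73a, Snora73b, Snora74a and Snora19. Members with 5 to 95% of their words elsewhere numbered 9, of which 8 were called lower with a median of -1.001. Members with under 5% elsewhere numbered 7, of which 5 were called lower with a median of -0.82. The falls were thus deepest where the snoRNA could not be told from annotated host transcripts by sequence, and were also called where it could. Unspliced host RNA was not searched, and the members with under 5% of words elsewhere all lie in host introns. Their reads therefore cannot be told apart from those of unspliced host RNA. Over the 37 members, the Spearman correlation of log2 fold change with the share of words elsewhere was -0.53, across genes that share libraries and in part a host.

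**Figure D2:**
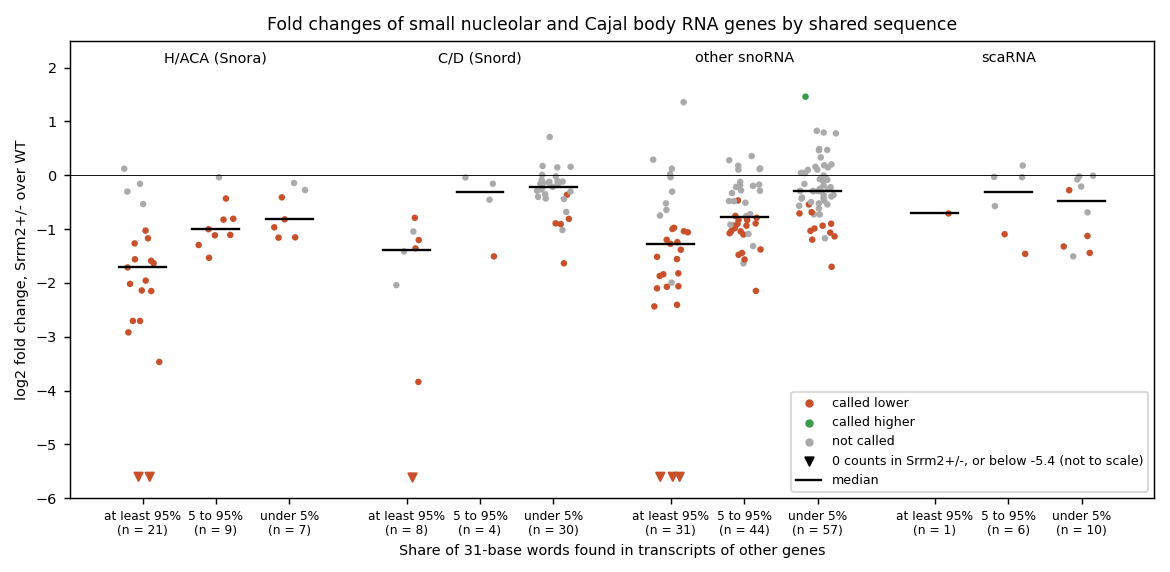
Log2 fold change (Srrm2+/- over WT) of each tested snoRNA and small Cajal body RNA (scaRNA) gene, by class and by the share of its 31-base words found in transcripts of other genes, with red for genes called lower, green for genes called higher, grey for genes not called, bars for medians and triangles, drawn off scale, for genes at 0 counts in Srrm2+/- or below the drawn range. The H/ACA medians are -1.71, -1.001 and -0.82 from the most to the least shared group.

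Members with under 5% of their words elsewhere are the ones least open to an exchange of reads with annotated transcripts of other genes. Snora62, in the gene of the small-subunit protein RPSA, stood at 14.4, 13.2 and 10.01 CPM in WT and 5.16, 5.16 and 6.61 CPM in Srrm2+/- libraries (log2 fold change -1.15, SE 0.15, adjusted p = 0.00068 in edgeR). Snora69, in the gene of the large-subunit protein RPL39, stood at 4.74, 4.67 and 2.24 CPM against 1.53, 1.81 and 1.88 CPM (log2 fold change -1.16, SE 0.27, adjusted p = 0.013 in edgeR). The groups were apart in both, and the call of Snora69 was lost without Srrm2+/- replicate 1 (adjusted p = 0.0521). Snora23, in the gene of the nuclear import receptor IPO7, stood at 97.8, 123 and 80.8 CPM in WT and 48.1, 72.5 and 50.2 CPM in Srrm2+/- libraries (log2 fold change -0.82, SE 0.18, adjusted p = 0.00959 in edgeR). Its highest Srrm2+/- library lay below its lowest WT library. Snora20, in the gene of the chaperonin subunit TCP1, was at a low level of 0.85, 0.78 and 0.75 CPM against 0.40, 0.46 and 0.34 CPM (log2 fold change -0.97, SE 0.24, adjusted p = 0.0169 in edgeR). It was not called by DESeq2 (adjusted p = 0.0519), nor when WT replicate 1 or 2 or Srrm2+/- replicate 1 or 3 was left out. Snora78 fell less, from 26.3, 32.7 and 29.3 CPM to 20.6, 22.2 and 23.8 CPM (log2 fold change -0.41, SE 0.08, adjusted p = 0.00756 in edgeR). It lies on the strand opposite to Rps2, a gene at 1701 ± 46.3 CPM in WT. None of its 31-base words occurs in an annotated transcript of another gene, in either orientation. The strand setting of the counting was not given in the sources used here. Reads of Rps2 from outside its annotated transcripts therefore cannot be told apart from reads of Snora78. The same holds for Snora23 with 1600010M07Rik. Of the other 2 tested members with under 5% of their words elsewhere, Snora31 and Snora47 had log2 fold changes of -0.27 and -0.14 and were not called.

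The most abundant members per base differed in how far they fell. Snora73a had the highest level per length, at 2935 CPM per kilobase in WT, followed by Snora73b at 1783, Snora81 at 850, Snora74a at 790, Snora57 at 557 and Snora23 at 546. Snora73a stood at 497, 661 and 648 CPM in WT and 456, 556 and 452 CPM in Srrm2+/- libraries, so the groups overlapped (log2 fold change -0.30, SE 0.12, adjusted p = 0.0901 in edgeR). Snora73b stood at 339, 437 and 321 CPM against 218, 330 and 210 CPM, and Srrm2+/- replicate 2 lay within the WT range (log2 fold change -0.53, SE 0.18, adjusted p = 0.0545 in edgeR). Without Srrm2+/- replicate 2 both were called lower, Snora73b at -0.77 (adjusted p = 0.00496) and Snora73a at -0.40 (adjusted p = 0.0464). Snora73a was also called without WT replicate 1 (log2 fold change -0.42, adjusted p = 0.0115), and limma voom called Snora73b (adjusted p = 0.0454). All of their words occur in Gm17300, annotated on the opposite strand, or in each other, and summing the 3 genes gave a log2 fold change of -0.37 (SE 0.12, adjusted p = 0.0485 in edgeR).

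Among the other abundant members the falls were larger, except in Snora74a. Snora81, in the gene of the RNA helicase EIF4A2, stood at 185, 181 and 88.4 CPM in WT and 55.7, 91.1 and 54.9 CPM in Srrm2+/- libraries (log2 fold change -1.17, SE 0.28, adjusted p = 0.0159 in edgeR). WT replicate 3 lay below Srrm2+/- replicate 2, and the call was lost without WT replicate 1 or 2 or Srrm2+/- replicate 1 or 3 (adjusted p from 0.0533 to 0.066). Snora57, with no host on its strand and with Lbhd1 on the other, stood at 76.8, 107 and 63.2 CPM against 32.7, 42.0 and 39.5 CPM, and the groups were apart (log2 fold change -1.11, SE 0.17, adjusted p = 0.00182 in edgeR). Snora74a stood at 135, 160 and 169 CPM against 134, 152 and 131 CPM, and the groups overlapped (log2 fold change -0.16, SE 0.09, adjusted p = 0.224 in edgeR). It was called lower without WT replicate 1 (log2 fold change -0.25, adjusted p = 0.0372), and all of its words occur in AC121821.1.

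The 7 members that were not called were Snora73a, Snora73b, Snora74a, Snora31, Snora47, Snora2b and Snora19, with log2 fold changes between -0.53 and 0.12. Snora31, in the gene of the translationally controlled tumour protein TPT1, stood at 7.32, 7.13 and 5.94 CPM in WT and 5.82, 5.37 and 5.67 CPM in Srrm2+/- libraries (log2 fold change -0.27, SE 0.11, adjusted p = 0.097 in edgeR). All WT libraries lay above all Srrm2+/- libraries, and it was called lower without WT replicate 3 (log2 fold change -0.36, adjusted p = 0.0386). Snora2b, in Kansl2, stood at 2.79, 1.94 and 1.83 CPM against 2.18, 2.19 and 2.03 CPM, with all Srrm2+/- values inside the WT range (log2 fold change -0.04, SE 0.19, adjusted p = 0.914 in edgeR). Snora34, which lies in another intron of Kansl2, was called lower with a log2 fold change of -1.11 (SE 0.24, adjusted p = 0.00885 in edgeR), from 2.06 ± 0.48 to 0.96 ± 0.21 CPM. A pair from the same host thus had unlike values, and the difference within the pair was not tested.

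The remaining called members had log2 fold changes between -1.59 and -0.43. In genes of ribosomal proteins, Snora3 (Rpl27a) had a log2 fold change of -1.59, Snora64 (Rps2) of -1.27, Snora7a (Rpl32) of -1.03 and Snora21 (Rpl23) of -1.001. Snora41, in the gene of the elongation factor EEF1B2, had a log2 fold change of -0.81. Snora26 (Dancr, a non-coding gene) and Snora15 (Cct6a, a chaperonin subunit gene) had values of -1.56 and -1.29, and Snora30 (Srcap, a chromatin remodeller gene) had -1.53. Snora43 and Snora17 lie close together on chromosome 2 with no host on their strand and had log2 fold changes of -0.82 and -0.43. Of these, the calls of Snora15 and Snora64 were lost when some single libraries were left out, WT replicate 1, WT replicate 2, Srrm2+/- replicate 1 or Srrm2+/- replicate 3 for Snora15 and Srrm2+/- replicate 1 or 3 for Snora64.

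Host genes had small changes. Of the 30 listed hosts 29 were tested, and 5 were called lower and 2 higher, with a median log2 fold change of -0.02. With 11.7% of all genes called lower and 13.6% higher, these counts are read as no result about hosts. Those called lower were Eif4a2 (-0.32), Snhg12 (-0.27), Kansl2 (-0.19), Rpl39 (-0.18) and Snhg15 (-0.14), and those called higher were Tpt1 (0.23) and Rcc1, the gene of the exchange factor of the GTPase RAN (0.16). Without Srrm2+/- replicate 2 the hosts called lower numbered 3, and without Srrm2+/- replicate 1 those called higher numbered 1. The calls of Snhg15, Kansl2 and Rcc1 were each lost in at least 3 of the 6 fits that left out 1 library. The lowest value among hosts called lower belonged to Eif4a2, which went from 1357 ± 36.0 to 1084 ± 40.3 CPM.

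A direct comparison of each snoRNA with its host was made on the log2 scale within libraries. The log2 CPM of the host was subtracted from that of the snoRNA, and the difference was tested between genotypes with limma. Of the 31 members with a tested host, 24 were lower relative to it in Srrm2+/- cells and 0 were higher at either an adjusted or an unadjusted p under 0.05, beside 41.3% lower among all 196 snoRNA and scaRNA genes paired with a host. The median of the change relative to the host was -1.17. Of the 24, 15 were among 18 pairs whose snoRNA had at least 95% of its words elsewhere, mostly in that host. A snoRNA whose words lie in its host divides reads with it, so that difference cannot show the snoRNA changing apart from the host. With 5 to 95% of words elsewhere 5 of 6 pairs were lower, and with under 5%, 4 of 7 (median -0.72). Snora44 and Snora70 are of the first kind and Snora62 is of the last. Snora62 changed by -1.29 relative to Rpsa (SE 0.25, limma adjusted p = 0.00783), Snora44 by -1.39 relative to Snhg12 (SE 0.29, limma adjusted p = 0.00951) and Snora70 by -1.91 relative to Rpl10 (SE 0.31, limma adjusted p = 0.004). Snora73b, not called by itself in edgeR, changed by -0.71 relative to Rcc1 (SE 0.24, limma adjusted p = 0.0409). Snora81 did not pass relative to Eif4a2 (-0.81, SE 0.31, limma adjusted p = 0.0639), a host that itself was lower. The count of 24 rested on single libraries, and was 12, 10 and 12 without WT replicate 1, WT replicate 2 and Srrm2+/- replicate 1. Over the 31 pairs the Spearman correlation between the log2 fold changes of snoRNA and host was 0.21, across genes of the same libraries.

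**Figure D3:**
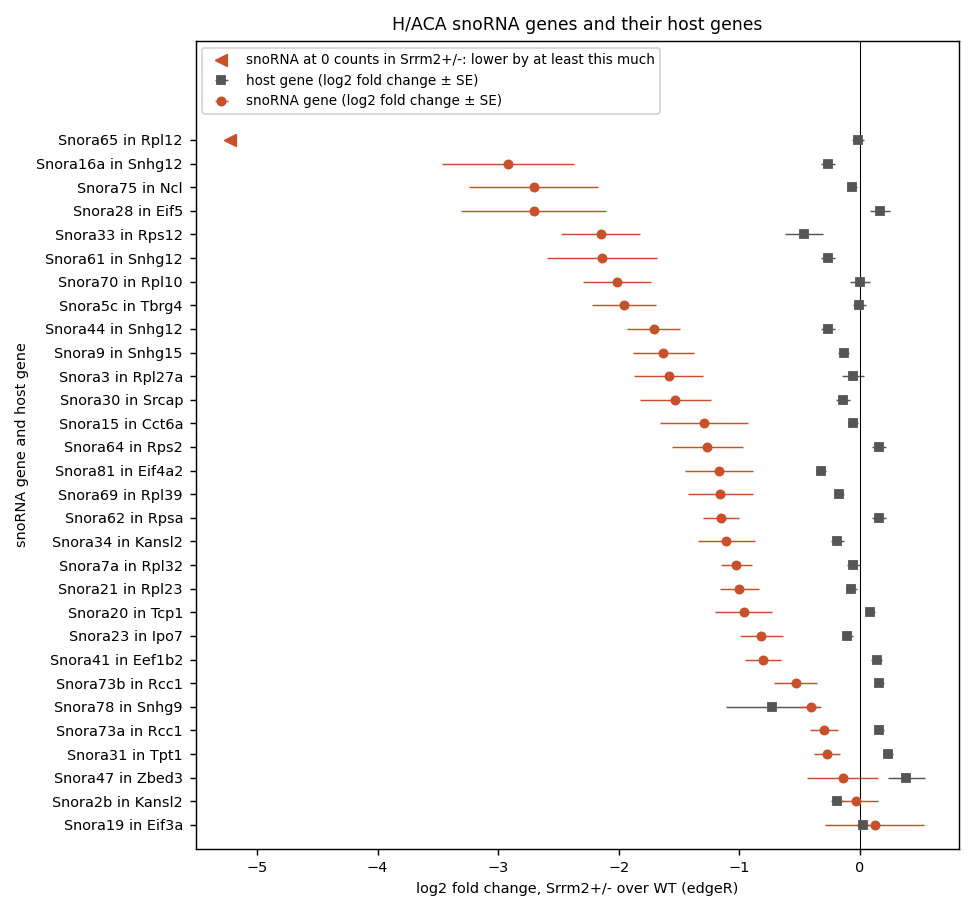
Log2 fold change (Srrm2+/- over WT, edgeR, with bars of 1 SE) of each tested H/ACA snoRNA gene (red circles) and of its host gene (grey squares) for 30 of the 31 pairs, with a triangle at the bound for Snora65. The hosts lie between -0.73 and 0.38, while most of the snoRNAs lie to the left of their host.

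Grouped by the kind of host, 13 of 15 tested members in genes of ribosomal proteins or translation factors were called lower (median log2 fold change -1.17). Over all genes, 11.7% were called lower. In hosts annotated with a non-coding type, 8 of 8 were called lower with a median of -1.67, and in other protein-coding hosts 6 of 11 with a median of -0.82. Members without a host on their strand, Snora57, Snora43 and Snora17, were called lower in 3 of 3 cases. By position, 18 of 19 members that overlap an exon of some host transcript were called lower (median -1.96), against 9 of 15 that were intronic in every host transcript (median -0.81). All 16 tested members with at least 95% of their words in their host are among those 19. Position and shared words therefore cannot be told apart here. The non-coding group holds Cct6a, which the annotation types as a processed transcript. In that group Snora16a, Snora44, Snora61, Snora9, Snora24 and Snora26 have all their words in their host, so the kind of host is mixed with shared words too.

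The genes of the H/ACA machinery were called about as often as all genes. Of 18 genes listed for the H/ACA particle, its assembly, its place in Cajal bodies and the trimming of its RNA ends, 2 were called lower and 3 higher, near the 11.7% and 13.6% of all genes. Dkc1, which encodes dyskerin, stood at 401, 404 and 423 CPM in WT and 319, 295 and 314 CPM in Srrm2+/- libraries, with no overlap (log2 fold change -0.41, SE 0.04, adjusted p = 0.00024 in edgeR). The other proteins of the mature particle differed from it. Nhp2 had a log2 fold change of 0.15 (SE 0.04, adjusted p = 0.0397 in edgeR), Gar1 of 0.10 and Nop10 of 0.03, and neither of the last pair was called. Naf1, an assembly factor that GAR1 replaces, was higher, from 28.4 ± 0.60 to 35.8 ± 2.79 CPM (log2 fold change 0.34, SE 0.06, adjusted p = 0.00425 in edgeR). Of the enzymes that act on RNA 3′ ends, the deadenylase gene Parn was higher (0.21, SE 0.04, adjusted p = 0.0085 in edgeR) and the poly(A) polymerase gene Tent4b lower (-0.13, SE 0.04, adjusted p = 0.0449 in edgeR). Exosc10, of the nuclear exosome, and Toe1 had log2 fold changes of 0.04 and -0.11 and were not called. The call of Tent4b was lost in every fit that left out 1 library and in DESeq2, and that of Nhp2 in each but the one without WT replicate 3. The number of listed genes called went from 5 to 3 without any 1 of WT replicates 1 and 2 and Srrm2+/- replicates 2 and 3. Terc, the telomerase RNA, which carries an H/ACA domain of its own but is not a snoRNA gene, stood at 0.99, 1.73 and 0.62 CPM in WT and 1.37, 2.57 and 2.25 CPM in Srrm2+/- libraries, with overlap (log2 fold change 0.88, SE 0.36, adjusted p = 0.113 in edgeR). DESeq2 called it higher (adjusted p = 0.039), as did edgeR without WT replicate 2 (adjusted p = 0.0256).

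As a share of all counts, the 41 listed members took 0.168% ± 0.0194 (SD, n = 3) in WT and 0.114% ± 0.017 in Srrm2+/- libraries, a ratio of 0.681. The WT libraries held 0.161, 0.189 and 0.152% and the Srrm2+/- libraries 0.103, 0.134 and 0.106%, so the groups did not overlap. Snora73a and Snora73b together made up 0.0966% of the WT counts and 0.0739% of the Srrm2+/- counts. Without that pair, the share of the class went from 0.071% ± 0.0127 to 0.0402% ± 0.0049, a ratio of 0.566.

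Related classes of short RNA are given for comparison, and the difference between classes was not tested. Among C/D box snoRNA genes, which guide ribose methylation, 11 of 42 were called lower, beside 11.7% of all genes, with a median log2 fold change of -0.33. Among snoRNA genes with other symbols, 51 of 132 were called lower and 1 higher (median -0.54, beside the same 11.7% lower and 13.6% higher over all genes). These genes may include H/ACA genes, since 17.6% of those annotated had the ACA tail. Among scaRNA genes, which guide modification of spliceosomal RNA in Cajal bodies, 7 of 17 were called lower (median -0.57). The scaRNA count was 3 or 4 without any 1 library other than WT replicate 3. Members differ from these classes in shared words as well, since 21 of 37 tested H/ACA genes had at least 95% of their words elsewhere, against 8 of 42 C/D box genes. In the group with under 5% of words elsewhere, 5 of 7 H/ACA genes (median -0.82) and 5 of 30 C/D box genes (median -0.22) were called lower. Spliceosomal snRNA genes went from 1.65% ± 0.468 to 0.997% ± 0.225 of all counts, with WT replicate 3 at 1.11% inside the range of the Srrm2+/- libraries. The share of miRNA genes went from 0.0813% ± 0.0161 to 0.126% ± 0.0286, and that of mitochondrial genes was 2.71% ± 0.132 and 2.68% ± 0.104. Genes of type rRNA took 0.0396, 0.0416 and 0.0132% of counts in WT and 0.00703, 0.00836 and 0.0129% in Srrm2+/- libraries, a ratio of mean shares of 0.30, with WT replicate 3 close to the highest Srrm2+/- library. The part of these differences between libraries in the snoRNA values was not tested.

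**Figure D4:**
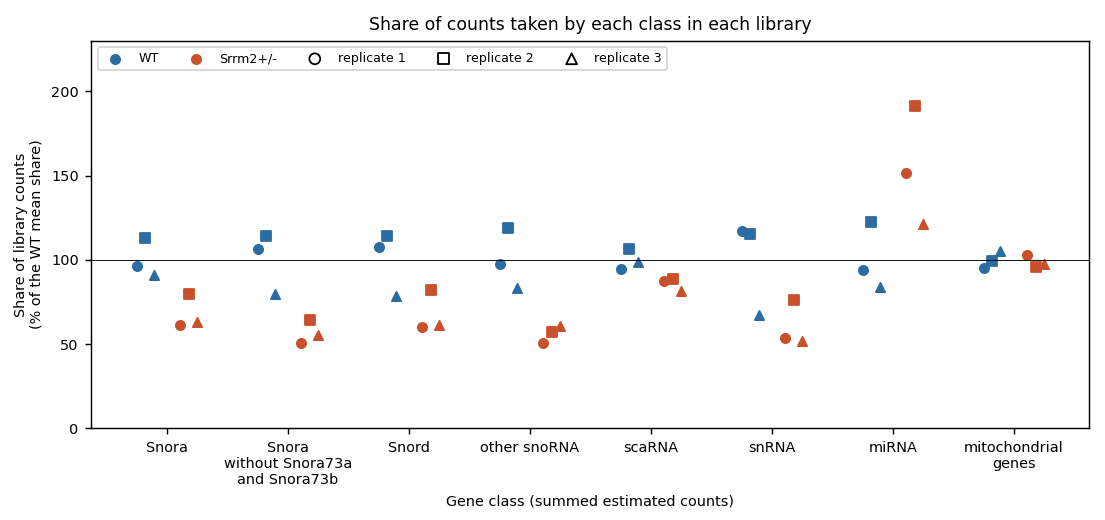
Share of library counts taken by each gene class, as a percent of the WT mean share, in the 3 WT (blue) and 3 Srrm2+/- (red) libraries, with replicates 1, 2 and 3 as circles, squares and triangles. The H/ACA class lies lower in all 3 Srrm2+/- libraries than in any WT library, WT replicate 3 is the lowest WT library in most short RNA classes, and mitochondrial genes do not separate the genotypes.

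Features that the choice of members did not use varied with the size of the change to a limited degree. The tested members were 121 to 205 bases long with a median of 133 bases, and the Spearman correlation of length with log2 fold change was 0.41 over 37 members. It was 0.32 for the mean log2 CPM and -0.05 for the GC content, which ran from 33.3 to 64.1%. Longer members and those of higher mean level tended to have smaller falls, with Snora73a, Snora73b and Snora74a at one end of both scales. The mean level takes in the Srrm2+/- libraries, so a deep fall lowers it, and that correlation is partly built in. Base composition showed no such order. These correlations are across genes of the same 6 libraries and describe them only.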

How the data were processed

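Total RNA of 3 WT and 3 Srrm2+/- cultures was compared, grouped and numbered by their titles. Estimated counts per gene, not normalised, were deposited by the authors, who used Kallisto 0.46.1 with GENCODE M24 transcripts (mm10). The strand setting was not given in the sources used here. Counts were rounded, filtered with filterByExpr (minimum count 10, minimum total 15) and scaled by TMM, and all 18905 genes left were fitted with edgeR 4.0.16 (glmQLFit and glmQLFTest, two-sided, genotype as the sole term, R 4.3.3). P-values were adjusted by Benjamini-Hochberg over all genes tested, and a call is an adjusted p under 0.05. The SE of a log2 fold change is its size divided by the root of F. CPM used TMM-scaled totals. Types, positions and transcript sequences came from GENCODE M21 on the same build (42156 identifiers matched), so differences from M24 remain possible. A host is an annotated longer gene on the same strand that holds the whole snoRNA gene. The identifiers of Snhg8, Dancr and Gm28285 had no row, and Htr2c did not pass the filter. 1 host gene and 1 member sequence are not reported here. Snora minus host values (prior count 2) were fitted with limma 3.58.1 over all 196 pairs.

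The genes named followed a rule: Srrm2, the H/ACA protein list, Terc, members at 0 in a group, the 12 lowest called members without overlap, the 6 with the highest mean log2 CPM, called members with words of their own and mean log2 CPM of at least 1, the 5 uncalled nearest 0, members of hosts with 3 or more, and their hosts. Other members were named after their values were seen. Members, lists and tests were chosen with earlier results of these data known. Alternatives were RLE and upper quartile scaling, TMM without short RNA, rRNA and mitochondrial genes, DESeq2 1.42.0, limma voom, other filters and limits, the replicate number as a block, and leaving out each library. Scripts were tested on simulated counts. Correlations of deviations between same-numbered libraries were -0.0284, -0.0127 and -0.0219. All pairs of libraries differed beyond sampling noise (lowest chi-square per degree of freedom 14.7).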

Additional observations from a re-analysis of the deposited data

How the results depend on the processing

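Under RLE and upper quartile scaling, TMM without short RNA, limma voom and DESeq2, 28 to 31 H/ACA genes were called lower and 0 higher, and the median lay between -1.16 and -1.13. With members of at least 95% shared words left out, 13 of 16 were called lower with a median of -0.89. In that setting 9 were lower than their host, 5 of 6 pairs with 5 to 95% and 4 of 7 with under 5% of words elsewhere. Of the hosts, 2 were called lower and 1 higher. When calls also had to reach a 2-fold change, 24 members were called lower, and 0 hosts in either direction, 0 protein genes and not Srrm2 (-0.69) passed. At an adjusted p under 0.01, 23 members, 1 host lower, 1 host higher and 3 protein genes were called. Hosts called higher numbered 5 with DESeq2 and 4 with a filter of at least 1 CPM. With the replicate block, 31 members were called lower, 25 were lower than their host, and 3 hosts (called lower) and 3 protein genes passed. The block added Snora73a (edgeR adjusted p = 0.0364) and Snora73b (edgeR adjusted p = 0.00122). For both genes replicate 2 was the highest library of either group, although the correlations of deviations between same-numbered libraries were near 0.

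Leaving out 1 library gave 24 to 31 members lower, 10 to 25 lower than their host, a median from -1.43 to -1.02, 3 to 4 hosts lower, 1 to 3 hosts higher, 3 to 4 protein genes and 3 to 7 scaRNA genes. Log2 fold changes near 0 changed sign. Those of Rpl10 ran from -0.066 to 0.092, Tbrg4 from -0.039 to 0.039, Rpl12 from -0.065 to 0.019, Snora2b from -0.15 to 0.18, Exosc10 from -0.015 to 0.096 and Nop10 from -0.00296 to 0.0595 when 1 library was left out. Rpl10 was at -0.000999 with RLE, -0.000998 with DESeq2 and -0.00337 with TMM without short RNA, and Tbrg4 at 0.000656 and 0.00162 with the filters of 1 count and 1 CPM. The cause was not tested. Small counts of single members limit their precision.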
